A study of Mus musculus with 8 samples.

Results

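The 42 genes described here drive or mark the cell cycle, and all 42 were found by symbol among the 30395 gene identifiers listed. They were taken from a list of names, which was chosen with earlier results of these data known. They fall into 15 S phase genes, 24 mitotic genes, 1 cyclin of early G1 (Ccnd1) and 2 inhibitors (Cdkn1a and Cdkn1c). RNA was sequenced from sorted mesenchymal cells of mouse liver in 4 groups of 2 libraries. Gli1+ peribiliary mesenchymal cells were taken from uninjured mice or 5 d after the bile duct was tied off (bile duct ligation, BDL), which dams bile in the liver. Hepatic stellate cells, the vitamin A storing cells of the sinusoid, were taken from the same 2 settings. Every mouse in the 4 groups was 8 weeks old, of mixed C57BL/6 and SWR/J stock, and carried Gli1:CreER+/-; Ai9+/-, a tamoxifen-dependent Cre under Gli1 control with a Cre-activated fluorescent reporter. The stellate cells thus carried the same alleles. The sources used here do not give the induction of the Cre, the gates of the sort or any pooling of animals. Nothing in the labels says that replicates 1 and 2 were separate animals, so the spread tested may be technical.

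A cell that enters the cycle first builds D-type cyclins, which with Cdk4 and Cdk6 release E2F factors from Rb proteins. E2F factors switch on the genes of S phase: the Mcm helicase and its loaders Cdc6 and Cdt1, the sliding clamp Pcna, and the enzymes that make nucleotides. Mitotic genes follow later in the cycle, through a complex of B-Myb, FoxM1 and MuvB proteins. Stellate cells of healthy liver are known as quiescent, and proliferation of stellate cells and portal fibroblasts is a known part of the response to blocked bile flow.

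Promoters of cell cycle genes carry short motifs bound by their regulators, and 6 promoters are shown as examples of members that hold them. Promoters were taken from RefSeq on GRCm38.p6, the mm10 assembly, for 14 of the 15 S phase and 19 of the 24 mitotic genes, and the 250 bases before the annotated start were searched on both strands. The CCAAT box, bound by NF-Y, was searched as CCAAT. The CHR, the cell cycle homology region read by MuvB complexes, was searched as TTTGAA and also as TTCGAA. The E2F motif was searched as TTCCCGC and as the variants TTGGCGC, then TTCGCGC and finally TTGCCGC. The mitotic promoters are Cdk1 (chr10:69352913-69353142, minus strand), Top2a (chr11:99024190-99024419, minus strand) and Ube2c (chr2:164769699-164769928, plus strand). Capitals mark every match to any of these motifs, and each sequence runs 5′ to 3′ from 230 bases to 1 base before the start.
Cdk1: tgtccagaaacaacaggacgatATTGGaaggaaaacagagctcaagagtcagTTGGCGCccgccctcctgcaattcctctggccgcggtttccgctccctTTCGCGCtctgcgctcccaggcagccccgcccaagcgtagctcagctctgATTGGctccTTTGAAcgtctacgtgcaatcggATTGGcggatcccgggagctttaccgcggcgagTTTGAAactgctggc
Top2a: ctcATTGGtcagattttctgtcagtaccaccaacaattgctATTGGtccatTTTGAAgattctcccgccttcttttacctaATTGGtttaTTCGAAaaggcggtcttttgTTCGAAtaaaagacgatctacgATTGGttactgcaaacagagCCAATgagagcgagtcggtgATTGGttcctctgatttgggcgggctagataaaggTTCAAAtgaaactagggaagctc
Ube2c: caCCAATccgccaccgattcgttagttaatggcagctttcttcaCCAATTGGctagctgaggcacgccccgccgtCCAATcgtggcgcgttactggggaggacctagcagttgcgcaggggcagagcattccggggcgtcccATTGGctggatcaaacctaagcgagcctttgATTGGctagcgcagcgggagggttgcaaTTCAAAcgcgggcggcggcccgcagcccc
S phase promoters are shown for Mcm6 (chr1:128359706-128359935, minus strand), Mcm5 (chr8:75109279-75109508, plus strand) and Rrm1 (chr7:102441465-102441694, plus strand), over the same span and marked in the same way.
Mcm6: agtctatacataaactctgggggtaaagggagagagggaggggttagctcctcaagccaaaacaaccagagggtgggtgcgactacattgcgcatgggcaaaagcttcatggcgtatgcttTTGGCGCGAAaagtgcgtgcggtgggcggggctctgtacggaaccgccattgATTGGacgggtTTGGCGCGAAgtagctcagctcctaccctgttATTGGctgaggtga
Mcm5: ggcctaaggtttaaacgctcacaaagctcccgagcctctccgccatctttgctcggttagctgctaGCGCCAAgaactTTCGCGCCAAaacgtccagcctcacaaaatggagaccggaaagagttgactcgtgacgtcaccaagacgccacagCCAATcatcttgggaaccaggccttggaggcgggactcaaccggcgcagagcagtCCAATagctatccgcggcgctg
Rrm1: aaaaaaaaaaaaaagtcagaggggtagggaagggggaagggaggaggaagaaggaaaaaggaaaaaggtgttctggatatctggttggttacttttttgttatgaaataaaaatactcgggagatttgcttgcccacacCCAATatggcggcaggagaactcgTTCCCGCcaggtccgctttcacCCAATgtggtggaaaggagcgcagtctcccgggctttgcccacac
The capitals hold 2 E2F matches in Cdk1 beside its CCAAT and CHR matches, and 2 CCAAT matches each in Mcm6, Mcm5 and Rrm1 beside their E2F matches. In Mcm6 and Mcm5, E2F matches on opposite strands overlap each other, and in Ube2c 2 CCAAT matches overlap. In Ccnb1 alone among the members an E2F match overlapped a CCAAT match.

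A CHR match stood in 9 of 19 mitotic genes (47.4%), in 2 of 14 S phase genes (14.3%) and in 19.6% of all 27025 genes with a promoter of this length. CCAAT was found in 17 of 19 mitotic genes (89.5%), 8 of 14 S phase genes (57.1%) and 37.5% of all. The E2F motif showed the opposite order, with 6 of 14 S phase genes (42.9%), 3 of 19 mitotic genes (15.8%) and 9.01% of all. CHR together with at least 2 CCAAT boxes occurred in 6 of 19 mitotic genes (31.6%) against 2.01% of all. The other genes of the cycle counted further below showed less contrast for 2 of the motifs. CCAAT stood in 60% of 30 other S phase and 63.4% of 41 other mitotic genes with a promoter, and CHR in 26.7% and 36.6%. The E2F motif stood in 50% and 12.2%. These matches describe the letters of the windows and are not binding data.

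Levels are CPM, reads per 1000000 reads of the library. A fold change is a difference of log2(CPM + 1) values, which understates the change of low genes, and its standard error (SE) comes from limma-trend, fitted over 16446 genes in all 8 libraries. Benjamini-Hochberg (BH) adjustment ran over those genes, and a gene is called at an adjusted p under 0.05. All 42 members passed the filter of at least 1 CPM in at least 2 libraries. Totals ran from 11261775 to 19180370 reads, so 3 reads equalled 0.156 to 0.266 CPM. Lrat, which stores retinol, was at 1832 to 2784 CPM in the 4 stellate libraries and 5.16 to 35.9 CPM in the 4 Gli1+ libraries, as the labels say, while Gli1 was at 2.39 to 14.9 CPM in Gli1+ libraries and at 0 to 0.0584 CPM in stellate libraries. Because CPM carries no other scaling, the median fold change of all genes was 0.32 (Gli1+ against stellate, uninjured), 0.23 (the same after BDL), 0.12 (BDL in Gli1+ cells) and 0.19 (BDL in stellate cells). In bulk libraries, fewer cycling cells and less of a transcript per cell cannot be told apart.

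Uninjured stellate cells held few mitotic transcripts. The 24 mitotic genes summed to 179 and 37.5 CPM in the 2 uninjured stellate libraries and to 319 and 507 CPM after BDL. In Gli1+ cells the sums were 181 and 625 CPM without injury and 1274 and 725 CPM after BDL. The uninjured Gli1+ libraries therefore lay far apart, and replicate 2 came close to the lower BDL library. In every BDL library all 24 mitotic genes were at 1 CPM or more, as they were in uninjured Gli1+ replicate 2. The other uninjured libraries had 13 such genes (Gli1+ replicate 1), 13 (stellate replicate 1) and 6 (stellate replicate 2). The 2 uninjured stellate libraries also had the fewest genes of any kind with a read, 16249 and 15963 against 18319 to 22897 in the other 6, and the lowest mitochondrial shares, 1.4% and 0.808% against 1.72% to 5.72%. The part of this in the mitotic counts was not tested.

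**Figure D1:**
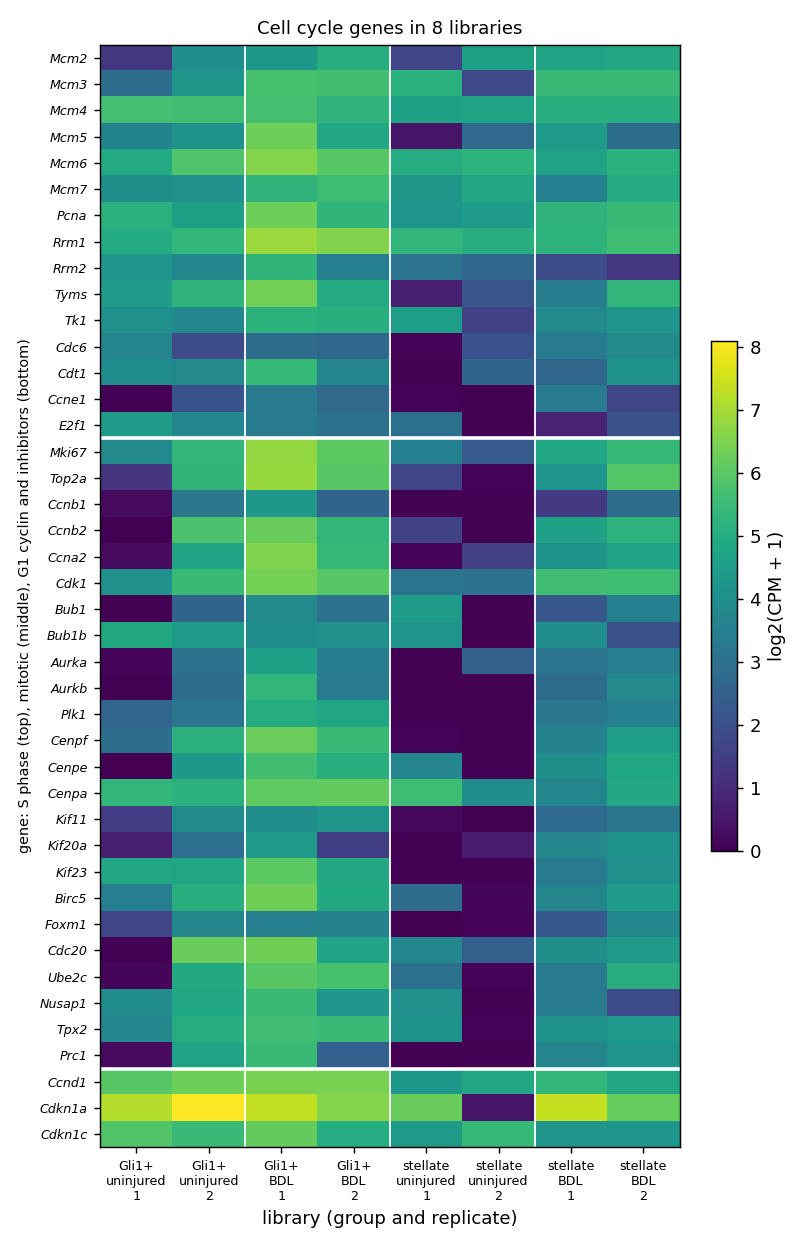
Level of each of the 42 genes, as log2(CPM + 1), in the 8 libraries (columns, by group and replicate), with S phase genes at the top, mitotic genes in the middle and Ccnd1, Cdkn1a and Cdkn1c at the bottom. Dark cells gather among the mitotic genes of the 2 uninjured stellate libraries and of uninjured Gli1+ replicate 1, while the 4 BDL libraries have all 24 mitotic genes at 1 CPM or more.

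S phase genes varied less between the groups than mitotic genes. Their sums were 283 and 327 CPM in uninjured Gli1+ cells, 750 and 489 CPM in Gli1+ cells after BDL, 205 and 194 CPM in uninjured stellate cells, and 282 and 361 CPM in stellate cells after BDL. Set against each other within a library, the mean log2(CPM + 1) of mitotic genes minus that of S phase genes was -1.93 and 0.30 in uninjured Gli1+ cells and -0.89 and -2.27 in uninjured stellate cells. After BDL it was 0.20 and -0.14 in Gli1+ cells and -0.28 and 0.01 in stellate cells. In all uninjured libraries but Gli1+ replicate 2 the mitotic genes thus lay below S phase genes, and all 4 BDL libraries had the 2 classes within 0.28 of each other. The same difference in 49 other mitotic and 38 other S phase genes was -0.50 and 0.35 in uninjured Gli1+, 0.03 and -0.88 in uninjured stellate, and between -0.08 and 0.39 in the BDL libraries, a narrower range in which uninjured stellate replicate 1 did not stand apart. These are descriptions of sums and means over genes and carry no test.

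**Figure D2:**
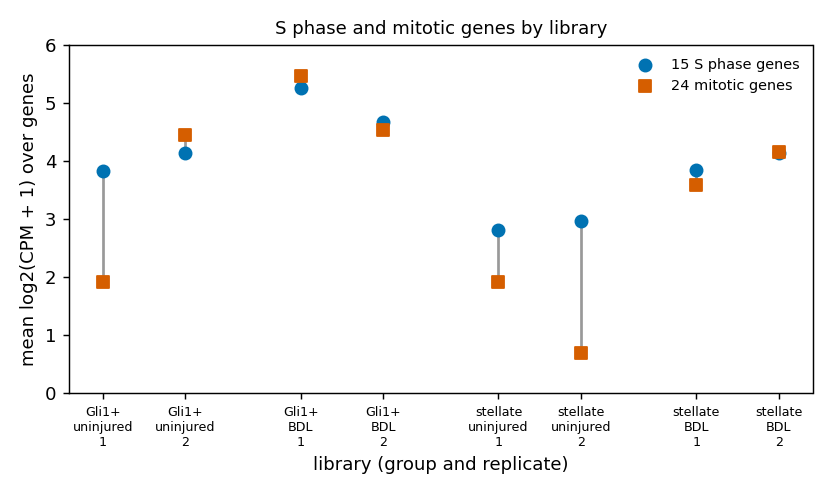
Mean log2(CPM + 1) of the 15 S phase genes (circles) and the 24 mitotic genes (squares) in each library, grouped by cell population and injury; a grey line joins the 2 classes of a library. The classes nearly coincide in the 4 BDL libraries and in uninjured Gli1+ replicate 2, and mitotic genes lie lower in the other 3 uninjured libraries, by 1.93 in Gli1+ replicate 1, 0.89 in stellate replicate 1 and 2.27 in stellate replicate 2.

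The uninjured comparison asked whether Gli1+ and stellate cells differ in cell cycle transcripts before injury. Of the 42 members, 5 were called, all higher in Gli1+ cells: Kif23, Cenpf, Plk1, Tyms and Ccnd1. Of all genes tested, 11.1% were called, 8.06% higher and 3.02% lower in Gli1+ cells. At an unadjusted p under 0.05 there were 15 of 42 members, beside 24% of all genes, and 37 of 42 had a fold change above 0, beside 61.7% of all genes. The median fold change was 1.92 for mitotic genes and 0.96 for S phase genes, beside 0.32 for all genes. Mitotic genes numbered 12 of 24 with both Gli1+ libraries above both stellate libraries and S phase genes 7 of 15, where 31.1% of all genes stood that way. In the opposite order stood 0 mitotic genes and 1 S phase gene, beside 14.6% of all genes.

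Kif23, a kinesin of the central spindle that is needed for cytokinesis (chromosome 9, 61915905 to 61946774, minus strand, GRCm38), was at 28.1 and 26.0 CPM in uninjured Gli1+ libraries and had no read in either stellate library. With 3 reads over the stellate group as the floor, Gli1+ cells held at least 318-fold more. This bound and the later ones cover counting error only. Some genes differed widely between the 2 uninjured stellate libraries, such as Bub1b at 17.4 and 0 CPM. The fitted log2 fold change of Kif23, 4.81 ± 0.72 (SE), had an adjusted p of 0.00434 (limma, BH). Both Gli1+ libraries held it at nearly the same level, and it was called under all 18 alternative settings.

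Cenpf, a kinetochore protein made in G2 (chromosome 1, 189640606 to 189688086, minus strand), was at 6.66 and 35.6 CPM in Gli1+ libraries and at 0.0612 and 0 CPM in stellate libraries. With 1 read in the stellate group, the ratio was 863 (95% exact interval 154 to 34125). Plk1, the polo-like kinase of mitotic entry (chromosome 7, 122159439 to 122169873, plus strand), was at 5.24 and 8.05 CPM against no read, at least 82.3-fold higher. The fitted log2 fold change of Cenpf was 4.02 ± 0.89 (adjusted p = 0.0225 by limma) and that of Plk1 2.91 ± 0.73 (adjusted p = 0.0368 by limma). Cenpf was called under 12 of the 18 alternatives (adjusted p up to 0.0936) and Plk1 under 7 (up to 0.0952). For both genes the Gli1+ and stellate libraries did not overlap.

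Tyms, thymidylate synthase (chromosome 5, 30058202 to 30073617, minus strand), was the S phase gene called, at 20.5 and 37.3 CPM in Gli1+ against 0.612 and 3.49 CPM in stellate libraries. Ccnd1, cyclin D1 (chromosome 7, 144929931 to 144939925, minus strand), was at 62.1 and 77.9 CPM against 18.8 and 27.5 CPM. By limma, Tyms had a log2 fold change of 3.41 ± 0.89 (adjusted p = 0.0418) and Ccnd1 one of 1.57 ± 0.40 (adjusted p = 0.0401). Tyms was called under 6 of the 18 alternatives and Ccnd1 under 5. Neither gene passed after TMM scaling (adjusted p by limma = 0.0579 and 0.0813), without a filter, with limma-voom or with edgeR.

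The other mitotic regulators mostly followed uninjured Gli1+ replicate 2. Ccnb2, a B-type cyclin, was at 0 and 55.3 CPM in the 2 Gli1+ libraries, and Cdc20, an activator of the anaphase-promoting complex, at 0 and 73.8 CPM. Top2a, the topoisomerase that untangles sister chromatids, was at 1.33 and 38.4 CPM, and Ccna2, cyclin A2, at 0.178 and 25.3 CPM. In uninjured stellate libraries these 4 genes reached 12.8 CPM at most. Replicate 1 of the Gli1+ cells had 5 mitotic genes without a read, which were Ccnb2, Bub1, Aurkb, Cenpe and Cdc20, whereas replicate 2 had none. No read of Ccnb1, Aurkb, Plk1, Kif23 or Prc1 was found in either uninjured stellate library. With these at their bounds, the median fold change of mitotic genes was 2.31 in place of 1.92. Bub1, a spindle checkpoint kinase, ran the other way, at 20.5 and 0 CPM in stellate libraries beside 0 and 5.02 CPM for Gli1+.

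Among S phase genes, the Mcm helicase did not move as a block. Mcm4 was at 50.6 and 47.5 CPM in Gli1+ against 23.9 and 25.7 CPM in stellate libraries, and Mcm5 at 11.5 and 16.6 against 0.367 and 5.74 CPM. Mcm7 instead was lower in both Gli1+ libraries (15.5 and 15.8 CPM) than in both stellate ones (18.5 and 27.1 CPM). Mcm2, Mcm3 and Mcm6 overlapped between the populations. E2f1, the transcription factor, was at 21.3 and 12.4 against 6.85 and 0 CPM, and the helicase loader Cdt1 at 14.3 and 13.1 against 0 and 5.06 CPM. Rrm1, the large subunit of ribonucleotide reductase, was at 30.3 and 39.8 against 39.3 and 33.0 CPM. None of these 9 genes was called (limma).

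The calls in this comparison changed when single libraries were left out. The BDL libraries enter it only through the shared estimate of spread and through the filter, which sets the genes tested and adjusted over. Leaving any of them out kept the fold change of each called member and lowered the residual degrees of freedom. Without uninjured Gli1+ replicate 2, without either Gli1+ BDL library or without stellate BDL replicate 2 the count of called members was 1, Kif23, and without stellate BDL replicate 1 it was 2. Without uninjured stellate replicate 1 it was 8. The mitotic median of 1.92 became 0.50 without uninjured Gli1+ replicate 2 and 3.14 without replicate 1.

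Transcripts of other cells also differed between these libraries. The 18 macrophage markers, all found, summed to 13873 CPM in uninjured stellate replicate 1 and 87.7 CPM in replicate 2, with Timd4, Fcgr1 and Mpeg1 at 0 in replicate 2, and to 4304 and 2329 CPM in the uninjured Gli1+ libraries. Stellate replicate 1 was also the one with more mitotic reads. The 12 mesothelial markers summed to 4474 and 10983 CPM in Gli1+ replicates 1 and 2, the order of their mitotic sums, and to 4.71 and 10.4 CPM in stellate libraries. Most other lists ran in the opposite order in these Gli1+ libraries. Hepatocyte markers summed to 1529 and 383 CPM, endothelial to 1614 and 620 CPM and portal fibroblast to 29823 and 16148 CPM. The 14 cholangiocyte markers had sums of 4572 and 3398 CPM for Gli1+ beside 7.46 and 4.22 CPM for stellate libraries, where Cldn4 and Elf3 were at 0. The part of these cells in the cell cycle values was not tested.

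After BDL the 2 populations were compared again. No member was called by limma, where 6.80% of all genes were called, 4.44% higher and 2.36% lower in Gli1+ cells. At an unadjusted p under 0.05 there were 7 of 42 members, beside 19.6% of all genes. By edgeR 0 and by DESeq2 1 member passed. Even so, 39 of 42 members had a fold change above 0, toward Gli1+ cells, against 60.4% of all genes. Mitotic genes had both Gli1+ libraries above both stellate libraries in 17 of 24 cases and S phase genes in 9 of 15, against 34.8% of all genes, and lower in 0 and 1, against 19% of all genes. The medians were 1.30 for mitotic and 1.16 for S phase genes, beside 0.23 for all genes.

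Rrm1, Rrm2 and Ccnd1 gave the smallest p-values of the members in this comparison. Rrm2, the small subunit of ribonucleotide reductase whose supply peaks in S phase, was at 38.1 and 10.3 CPM in Gli1+ against 2.74 and 1.44 CPM in stellate libraries. Rrm1 was at 117 and 93.0 CPM against 36.6 and 46.6 CPM. By limma the log2 fold change was 2.80 ± 0.83 for Rrm2 (adjusted p = 0.0891) and 1.32 ± 0.38 for Rrm1 (adjusted p = 0.0850), so neither passed. Other enzymes of nucleotide synthesis had larger p-values: Tyms was at 80.9 and 29.8 against 9.81 and 39.2 CPM, with overlap, and Tk1, thymidine kinase, at 35.5 and 32.7 against 13.7 and 17.8 CPM. Cenpa, the histone H3 variant of centromeres, was at 69.0 and 70.4 against 12.1 and 28.5 CPM. The exceptions with a fold change below 0 were Mcm2, Cdc6 and Kif20a, and Cdc6, the helicase loader, was at 6.45 and 5.51 CPM in Gli1+ below 9.22 and 13.8 CPM in stellate libraries. Without Gli1+ BDL replicate 1 the S phase median of 1.16 became 0.56, and without stellate BDL replicate 1 it became 0.45. The mitotic median of 1.30 became 0.86 without Gli1+ BDL replicate 1.

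Cholangiocyte and hepatocyte transcripts were high in the Gli1+ libraries after BDL. The 14 cholangiocyte markers summed to 16946 and 8129 CPM there, in the order of the mitotic sums, and to 182 and 758 CPM in stellate libraries. Of the stellate sums, Spp1, which is not restricted to bile duct cells, held 177 and 743 CPM, and Cldn4 and Sctr were at 0. For the 20 hepatocyte markers the sums were 3848 and 22008 CPM (Gli1+), in the opposite order, and 2268 and 2379 CPM (stellate). The 12 mesothelial markers summed to 6273 and 4064 CPM (Gli1+), in the order of the mitotic sums, and to 48.3 and 78.9 CPM (stellate). The part of these cells in the cell cycle values after BDL was not tested.

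The response to BDL was then measured within each population. In stellate cells 0 of 42 members were called by limma, where 0.225% of all genes were called, all of them higher after BDL. At an unadjusted p under 0.05 there were 18 of 42 members, 14 of them among the 24 mitotic genes, beside 12% of all genes. In 19 of 24 mitotic genes both BDL libraries stood above both uninjured libraries, against 27.4% of all genes, and in 0 both stood below, against 12.2%. In all, 36 of 42 members had a fold change above 0, beside 60.8% of all genes. The mitotic median was 2.62, or 2.79 with the 5 genes without uninjured reads at their bounds, and the S phase median 1.01, beside 0.19 for all genes. On the recovered reads, edgeR called 1 member (Kif23) and DESeq2 called 13, of which 11 were mitotic.

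Markers of other cells differed between the same stellate libraries. The 20 hepatocyte markers had sums of 332 and 132 CPM in uninjured libraries, with Hnf4a and Cyp7a1 at 0, and of 2268 and 2379 CPM after BDL. For the 18 endothelial markers the sums were 2518 and 2690 CPM and then 5154 and 3805 CPM. Eng alone held 1570 and 2312 CPM of these and then 1811 and 1533 CPM, so the sums understate the rise of the rest. The cholangiocyte markers summed to 7.46 and 4.22 CPM and then to 182 and 758 CPM, of which Spp1 held 177 and 743 CPM. Macrophage markers were at 13873 and 87.7 CPM and then at 2410 and 1632 CPM. Their part in the stellate response was not tested.

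Named genes show the size of this difference. Cdk1, the kinase that drives mitosis, was at 7.58 and 7.09 CPM in uninjured and 47.6 and 47.2 CPM in BDL stellate libraries, with little spread in either group. The log2 fold change was 2.54 ± 0.54 (adjusted p = 0.136 by limma). Kif23 had no read in uninjured stellate cells and 8.99 and 15.6 CPM after BDL, at least 139-fold higher, with a fitted log2 fold change of 3.69 ± 0.72 and an adjusted p of 0.104, the smallest among the members. Plk1 was at 0 and then at 8.52 and 10.4 CPM, at least 110-fold higher. Prc1, which bundles spindle microtubules, was at 0 and then at 11.9 and 17.1 CPM, and Aurkb, a kinase of the chromosomal passenger complex, at 0 and then at 6.31 and 12.9 CPM, at least 166-fold and 107-fold higher. In each of these genes the BDL libraries lay above the uninjured ones, while the adjusted p missed the threshold.

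Proliferation markers gave the same order. Mki67, the gene of the Ki-67 antigen, was at 10.7 and 4.01 CPM in uninjured and 27.5 and 41.5 CPM in BDL stellate libraries. Top2a was at 2.20 and 0.0521 CPM and then at 17.3 and 60.2 CPM. Foxm1, a transcription factor of mitotic genes, was at 0 and 0.0521 CPM and then at 3.68 and 12.7 CPM, a ratio of 262 (95% exact interval 46.5 to 10391). In Bub1, Bub1b, Cenpa, Nusap1 and Tpx2 the groups overlapped. Nusap1, a spindle protein, was at 16 and 0 CPM in uninjured and 8.99 and 2.55 CPM in BDL stellate libraries, and Cenpa at 46.4 and 14.5 and then 12.1 and 28.5 CPM.

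In stellate cells 9 of 15 S phase genes had both BDL libraries above both uninjured ones, against 27.4% of all genes. In 1 both stood below, against 12.2% of all genes. Mcm3 was at 34.8 and 2.45 CPM in uninjured and 44.1 and 43.4 CPM after BDL, Pcna at 17.4 and 21.2 and then 37.2 and 42.6 CPM, and Ccne1, the cyclin E1 of S phase entry, at 0.0612 and 0 and then 9.22 and 2.21 CPM. Against these, Rrm2 was at 7.46 and 5.53 CPM and then at 2.74 and 1.44 CPM, the S phase gene with both BDL libraries below both uninjured ones. Mcm6 was at 31.4 and 36.8 CPM and then at 24.2 and 35.3 CPM, and Mcm7 at 18.5 and 27.1 and then 10.7 and 30.4 CPM, with overlap. Without uninjured stellate replicate 2 the S phase median of 1.01 became 0.46. Without uninjured stellate replicate 1, the library with many macrophage transcripts, the mitotic median was 3.17 and 3 members were called (Cdkn1a, Mcm3 and Tpx2).

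In Gli1+ cells the BDL response had 0 called members and 0 called genes in all (0%) by limma. At an unadjusted p under 0.05 there were 8 of 42 members, beside 11% of all genes. edgeR called 0 members and DESeq2 called 1, Rrm1. The mitotic median was 1.75 and the S phase median 0.90, beside 0.12 for all genes. Both BDL libraries exceeded both uninjured ones in 15 of 24 mitotic and 9 of 15 S phase genes, against 25.1% of all genes, and 1 mitotic and 1 S phase gene stood lower, against 16.2%. A fold change above 0 was found in 37 of 42 members, beside 56.1% of all genes. Without uninjured Gli1+ replicate 1 the mitotic median became 0.68, and without replicate 2 it became 2.78. For S phase genes the median became 0.57 without Gli1+ BDL replicate 1 and 1.41 without BDL replicate 2.

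Marker sums of the Gli1+ libraries differed between the same groups. The 18 portal fibroblast markers, Gli1 among them, had sums of 29823 and 16148 CPM in uninjured libraries and of 6469 and 5487 CPM after BDL. Cholangiocyte markers were at 4572 and 3398 CPM and then at 16946 and 8129 CPM, and hepatocyte markers at 1529 and 383 CPM and then at 3848 and 22008 CPM. Mesothelial markers were at 4474 and 10983 CPM and then at 6273 and 4064 CPM. The part of all these cells in the Gli1+ response was not tested.

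Rrm1 had the smallest p-value of the members in this response, at 30.3 and 39.8 CPM in uninjured and 117 and 93.0 CPM in BDL libraries. The log2 fold change was 1.56 ± 0.38 (adjusted p = 0.137 by limma). Mcm3 was at 6.48 and 18.5 CPM and then at 52.2 and 49.1 CPM, and Mcm7 at 15.5 and 15.8 and then 37.6 and 46.7 CPM. Mki67 was at 12.9 and 40.3 CPM and then at 109 and 65.4 CPM, and Top2a at 1.33 and 38.4 and then 115 and 63.2 CPM. For all 5 genes the BDL libraries were above the uninjured ones, and for Mki67 and Top2a the uninjured libraries differed from each other by more than the lower BDL library differed from uninjured replicate 2. E2f1 ran the other way, at 21.3 and 12.4 CPM in uninjured and 9.03 and 6.94 CPM in BDL libraries, as did the checkpoint kinase Bub1b, at 28.9 and 20.1 and then 14.8 and 15.6 CPM.

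**Figure D3:**
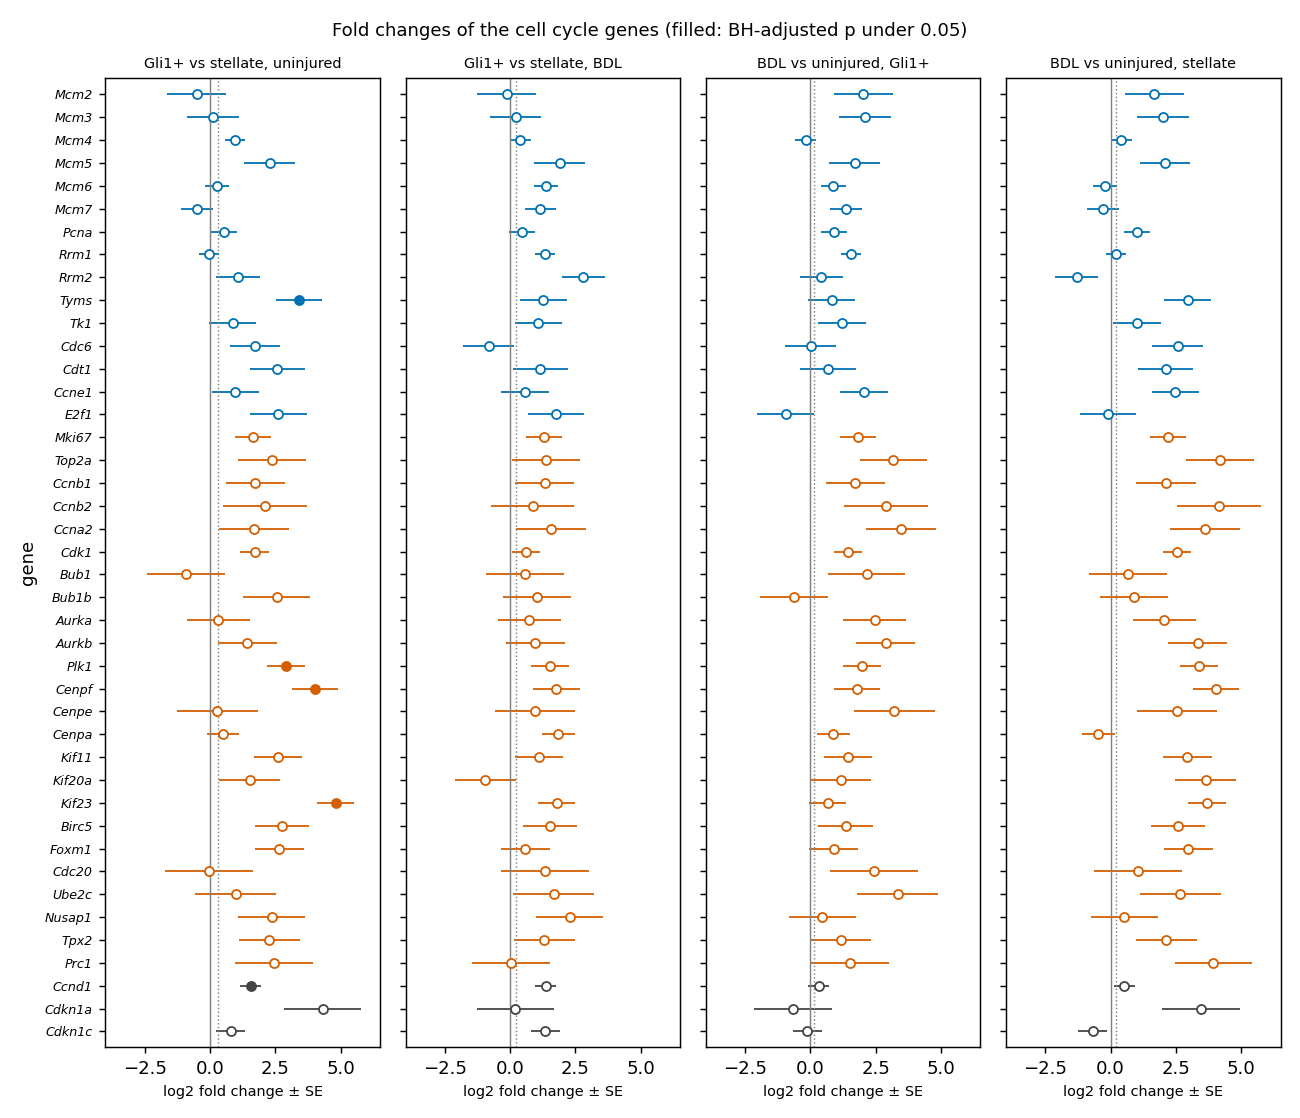
Fitted log2 fold change on the log2(CPM + 1) scale, with its SE as bars, of each member in 4 comparisons (panels); circles are filled where the BH-adjusted p is under 0.05, and the dotted line is the median of all genes. S phase genes are blue, mitotic genes orange and the other 3 grey; the 5 filled circles (Tyms, Plk1, Cenpf, Kif23 and Ccnd1) all lie in the uninjured comparison, and 36 of 42 circles lie above 0 in the BDL response of stellate cells.

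The responses of the 2 populations were compared by their difference, Gli1+ minus stellate. No member was called by limma, where 0.0122% of all genes were called, and 2 of 42 members had an unadjusted p under 0.05, beside 7.48% of all genes. A difference above 0 was found in 14 of 42 members, beside 44.8% of all genes. edgeR called 0 members and DESeq2 called 4 (Cenpf, Kif23, Plk1 and Prc1), all with the larger log2 response in stellate cells. Over the uninjured stellate libraries Cenpf had 1 read and Kif23, Plk1 and Prc1 had 0. The size of their stellate log2 response is therefore poorly fixed, and it does not give the larger rise in CPM. Kif23 had a difference of -3.03 ± 1.01 (SE, limma BH-adjusted p = 0.532). Rrm1 had a difference of 1.37 ± 0.54 (adjusted p = 0.607), that is, toward the Gli1+ response. The median was -1.0 for mitotic genes, but 0.41 without uninjured Gli1+ replicate 2, and -0.11 for S phase genes. Genes with both BDL libraries above both uninjured ones in each population were 12 of 24 mitotic genes and 5 of 15 S phase genes, the latter being Mcm2, Mcm3, Mcm5, Pcna and Ccne1, where 9.39% of all genes stood that way. No member was lower in both, against 3.35% of all genes.

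Of the 3 members that act in G1, Ccnd1 stood higher in all 4 Gli1+ libraries (62.1, 77.9, 86.6 and 87.3 CPM) than in all 4 stellate libraries (18.8, 27.5, 39.8 and 27.9 CPM), with uninjured libraries named before BDL libraries. After BDL its log2 fold change between the populations was 1.36 ± 0.40 (SE, limma BH-adjusted p = 0.0900). It overlaps 1771 bases of the gene LTO1 on the other strand, which reached 48.2 CPM, and the kit does not mark strand. Ccnd2, cyclin D2, which is not among the 42, had the reverse pattern, with 529, 728, 527 and 516 CPM for stellate and 214, 114, 93.9 and 108 CPM for Gli1+ libraries. Its log2 fold change was -1.98 ± 0.36 without injury (limma BH-adjusted p = 0.0103). After BDL it was -2.36 ± 0.36 (limma BH-adjusted p = 0.00723). The call held under 17 of 18 alternatives in uninjured liver and 14 of 18 after BDL, where it was lost whenever 1 of the 4 BDL libraries was left out (adjusted p up to 0.0869). Ccnd3 was within 75.7 to 181 CPM for stellate and 40.0 to 93.5 CPM for Gli1+ libraries and was not called.

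Cdkn1a, the p21 inhibitor that p53 induces, differed between replicates, at 146 and 272 CPM in uninjured Gli1+, 163 and 97.1 CPM in Gli1+ after BDL, 72.8 and 0.365 CPM for uninjured stellate, and 166 and 72 CPM for stellate cells after BDL. Uninjured stellate replicate 2 was the library nearly without it. The log2 fold change between uninjured populations was 4.32 ± 1.48 (SE, limma BH-adjusted p = 0.107). Cdkn1a was called in that comparison, in the stellate BDL response and in the difference of responses only when uninjured stellate replicate 1 was left out, which leaves the library at 0.365 CPM alone in its group. Cdkn1c, the p57 inhibitor, was at 58.9 and 44.1 CPM in uninjured Gli1+, 69.6 and 31.4 CPM after BDL, 20.2 and 41.6 CPM for uninjured stellate, and 17.6 and 17.9 CPM in stellate cells after BDL. It was not called in any comparison. Cdkn1b, the p27 inhibitor, was at 137 and 41.5 CPM in uninjured Gli1+, 14.9 and 31.7 CPM after BDL, 167 and 33.9 CPM for uninjured stellate, and 29.7 and 49.9 CPM in stellate cells after BDL, also without a call.

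**Figure D4:**
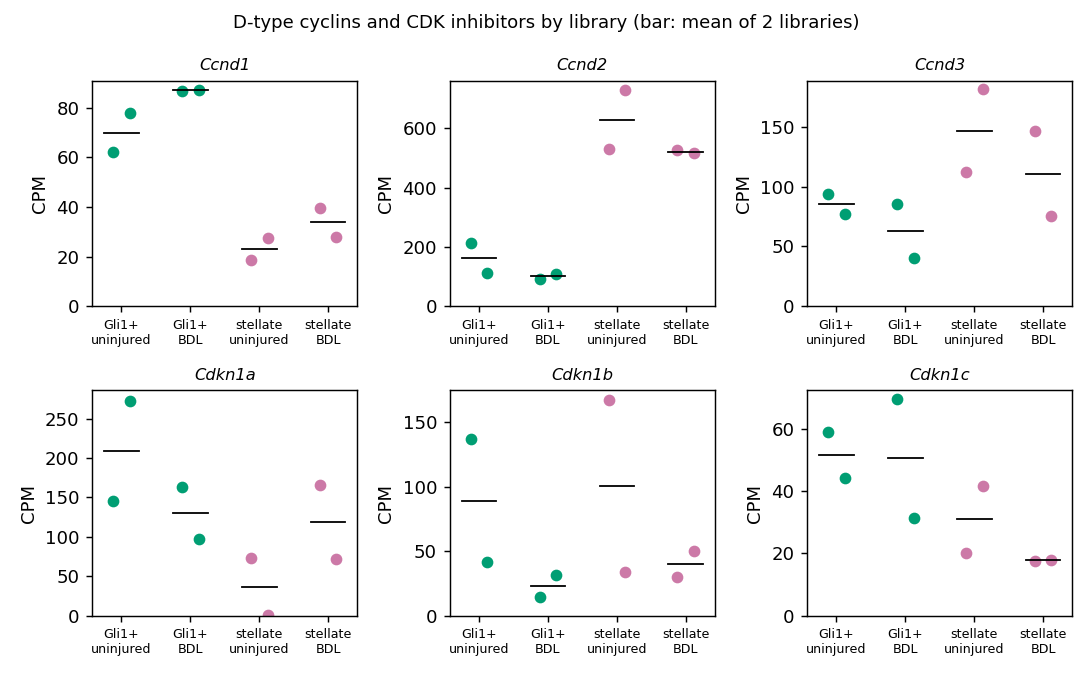
CPM (linear axis from 0, a different range in each panel) of 3 D-type cyclins and 3 inhibitors of cyclin-dependent kinases in the 2 libraries of each group (points) with the mean (bar). Ccnd1 is at 62.1 CPM or more in every Gli1+ library and at 39.8 CPM or less in every stellate library, Ccnd2 is at 516 CPM or more in stellate and at 214 CPM or less in Gli1+ libraries, and Cdkn1a is near 0 in 1 uninjured stellate library.

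Other genes of the cycle, from lists not used to choose the 42, were counted beside them. These lists too were chosen with earlier results of these data known, so they are not an independent check. Of 38 other S phase genes, 37 were tested. In uninjured liver Pole, the leading strand polymerase, was higher in Gli1+ cells (10.1 and 7.08 CPM against no read). Of 49 other mitotic genes 5 were higher and 2 lower, where 8.06% and 3.02% of all genes were called. The higher ones were Spc24 of the kinetochore (15.8 and 14.4 CPM against no read), Cdca3, Kif4, Pbk and the condensin subunit Ncapd2. Lower in Gli1+ cells were Cit, citron kinase (6.30 and 45.3 against 232 and 170 CPM), and Pttg1, securin (80.5 and 51.5 against 196 and 190 CPM). Of 19 other G1 genes 1 was lower, Ccnd2, and of 14 other inhibitors and p53 targets 0 were called by limma, with 2 at an unadjusted p under 0.05 beside 24% of all genes. By limma the adjusted p was 0.0140 for Spc24, 0.0272 for Cit and 0.0487 for Pole, and the calls held under 16, 10 and 6 of 18 alternatives.

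After BDL, Ccnd2 was the only gene of these 4 lists called between the populations, and none was called in either response or their difference by limma. In stellate cells 17 of 49 other mitotic genes and 9 of 37 other S phase genes had an unadjusted p under 0.05 in the BDL response, beside 12% of all genes, with medians of 1.64 and 0.89. In Gli1+ cells these were 9 of 49 and 5 of 37, beside 11% of all genes, with medians of 1.31 and 0.95. The 19 other G1 genes had a median of 0.18 in stellate and 0.53 in Gli1+ cells, and the 14 other inhibitors and p53 targets one of -0.05 and 0.31, beside 0.19 and 0.12 for all genes. The medians of both mitotic lists were above those of both S phase lists in each response, but without uninjured Gli1+ replicate 1 the members' medians in the Gli1+ response were 0.68 for mitotic and 0.92 for S phase genes.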

How the data were processed

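CPM values of 8 libraries, 2 per group, were deposited by the authors in a column that the file headers call normalized counts. Libraries were made with SMART-Seq2, per the labels' protocols. Per the submitters' processing notes, the authors used FastQC, STAR 2.5.2b, featureCounts, DESeq2 and the build mm10, in roles those notes do not assign. Annotation, strand setting and the handling of multi-mapping reads are absent from the sources. Each column summed to 1000000, and 100.0% of values were whole multiples of 1 read within 0.1 read, so reads were recovered. Of 30395 identifiers, 30233 matched GENCODE vM21 (GRCm38). Ccnb1, Ccnb2, Pcna and Tyms have annotated pseudogene copies, and some members overlap other genes, among them Mcm7, Tk1, Ccna2, Kif20a, Cdc20, Ube2c, Nusap1, Prc1, Plk1 and Ccnd1, so their values are uncertain to that extent.

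Limma-trend (limma 3.58.1, R 4.3.3) was fitted on log2(CPM + 1) with 4 group means and 4 residual degrees of freedom, since CPM are not raw counts. The fit was also run on simulated counts with known changes. These changes were not placed in genes of low mean level, so changes in genes with few reads were not covered. Alternatives were pseudocounts of 0.5 and 0.1, TMM scaling, no filter or 5 CPM, a replicate block, the libraries of a comparison alone, limma-voom, edgeR 4.0.16 and DESeq2 1.42.0 on recovered reads, and leaving out each library. Named genes were the 42 members and called genes of 4 further lists, plus Ccnd3 and Cdkn1b, which were chosen outside this rule after their values were seen; Sgol1 was not found, and 1 called gene of these lists is not reported here. For those further genes the alternatives were added after seeing the data. The members and lists were chosen with earlier results of these data known. Folds against groups without reads use a floor of 3 reads over the group. These bounds and the exact 95% intervals cover counting error only, not the spread between libraries. PCR copies were not removed by molecular identifiers. Marker lists of stellate cells, portal fibroblasts, macrophages, lymphocytes and neutrophils, endothelium, hepatocytes, cholangiocytes, mesothelium and erythroid cells were summed per library. Over the 8 libraries the sums ranged from 4469 to 115799 CPM (stellate), 398 to 29823 (portal fibroblast), 0.209 to 191 (lymphocyte and neutrophil), 620 to 5154 (endothelial) and 0 to 4.49 (erythroid).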

Additional observations from a re-analysis of the deposited data

How the results depend on the processing

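With 2 libraries per group, the counts of called members depended on the processing. No called gene changed sign under any of its 18 alternatives, but this is no check of the calls. The populations did not overlap in these genes, so leaving out 1 library could not change a sign. The filters and the replicate block leave the fold change as it is. In the uninjured comparison 5 members were called, and 3 were called with TMM scaling, 3 with limma-voom, 3 with edgeR, 12 with DESeq2, 1 without a filter and 1 with the 4 libraries alone; leaving out 1 library gave 1 to 8. Calls lost with fewer libraries have fewer residual degrees of freedom; for the other settings the cause was not tested. After BDL, DESeq2 called 1 and the 4 libraries alone 2, and leaving out 1 library gave 0 to 1. In the Gli1+ response DESeq2 called 1, and leaving out 1 library gave 0 each time. In the stellate response a pseudocount of 0.1 gave 3, edgeR 1, DESeq2 13 and leaving out 1 library 0 to 3. For the difference of responses DESeq2 called 4, and leaving out 1 library gave 0 to 1. The replicate numbers did not pair the libraries (correlations of deviations from group means from -0.11 to 0.11 over 6 pairs of groups); with a replicate block 3 members (Cenpf, Kif23 and Tyms) were called in the uninjured comparison, and no other count of members changed.

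Medians of S phase genes were 0.73 with TMM scaling, 0.75 with edgeR and 0.77 with DESeq2 in the uninjured comparison, and 1.21 with a pseudocount of 0.1 and 1.67 with limma-voom in the stellate response. For mitotic genes a pseudocount of 0.1 gave 3.40 and limma-voom 4.11 in the uninjured comparison. There edgeR gave 3.01 and DESeq2 3.02. In the stellate response the pseudocount of 0.1 gave 4.62, limma-voom 5.21, edgeR 3.39 and DESeq2 3.35. In the difference of responses the pseudocount of 0.1 gave -2.11, limma-voom -2.84, edgeR -1.64 and DESeq2 -1.61. Leaving out 1 library, S phase medians ranged from 0.82 to 1.02 (uninjured), 0.45 to 1.26 (after BDL), 0.57 to 1.41 (Gli1+ response), 0.46 to 1.18 (stellate response) and -0.62 to 0.13 (difference). Mitotic medians ranged from 0.50 to 3.14, 0.86 to 1.64, 0.68 to 2.78, 2.19 to 3.17 and -1.84 to 0.41 in the same order. Fitting the libraries of a comparison alone gives no value for the difference of responses. Genes with few reads limit the fitted folds, since the pseudocount sets them.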
